A study of Mus musculus with 16 samples.

Results

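The 8 genes described here encode receptors on the surface of neutrophils: Fpr1, Fpr2, Cxcr2, Csf3r, Il1r2, Clec4d, Trem1 and Cd177. They were chosen by name, as the probes whose gene name on the array equals one of these symbols, and each has 1 probe with 1 spot, among 34836 gene names or identifiers on 55681 probes. A gene was tested where the scanner software flagged its probe as well above background on 4 or more of the 16 arrays, and 7 of the 8 were among the 24543 genes that met this. Cxcr2 met it on 0 arrays and was not tested.

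RNA came from macroscopically tumour-free colon, collected on day 28 from 16 ApcMin/+ mice, in which 1 of the 2 Apc alleles, a brake on intestinal tumour growth, is inactivated in every group. The 6 5-ASA mice drank dextran sulphate sodium (DSS), which injures the colonic lining, at 1.5% (w/v) for 3 days, and were given 5-aminosalicylic acid, an anti-inflammatory drug. The 6 Control mice received the same DSS course and saline, and the 4 Sham mice drank water alone. The labels differ on the dosing, which they place in the colorectum for 28 days in one field and, in another, in what the mice drank over the 25 days that followed DSS, when Control mice had plain water. Age, sex and strain background were not given in the sources used here. Each mouse had 1 single-colour array made from 0.2 ug RNA, and the number of mice limits the precision.

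Neutrophils leave the blood for injured or infected tissue along gradients of bacterial peptides, chemokines and complement fragments, which they sense with surface receptors of the kind described here. Others of these receptors keep the cells alive, release them from the marrow, bind or neutralise cytokines, recognise microbial and damaged-cell ligands, or hold the cells to vessel walls. In colitis, neutrophils gather in the mucosa and enter the crypts, and several of these receptors are also made by monocytes, macrophages and other cells.

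Levels are log2 intensity relative to the 75th percentile of the same array, so that 0 stands for a spot at that percentile, and the level of one probe cannot be ranked against that of another. The arrays lay on 2 slides with equal numbers of each group. In the first row of both slides lay all Sham arrays and Control 1, 2, 4 and 5, and in the second row all 5-ASA arrays and Control 3 and 6, so that 5-ASA and Sham shared no row. The additive error of the scanner files was 8.12 to 11.2 units in the second row and 4.05 to 5.72 units in the first, which bears on dim probes. A difference was called at a Benjamini-Hochberg adjusted p under 0.05 over all genes tested in limma. The labels do not say more than that replicates are biological, and in bulk tissue fewer cells of a type and less RNA per cell cannot be told apart.

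The probes are shown first, because some hold letters that recur in probes of other genes. All sequences are in lower case unless stated, 5′ to 3′ as the array design gives them. The formyl peptide receptors Fpr1 and Fpr2 are related genes, yet their probes share no run longer than 6 bases, and no 20-base run with any other probe.
Fpr1: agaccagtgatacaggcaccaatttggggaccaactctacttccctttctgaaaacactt
Fpr2: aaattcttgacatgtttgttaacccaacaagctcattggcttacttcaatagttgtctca
Il1r2: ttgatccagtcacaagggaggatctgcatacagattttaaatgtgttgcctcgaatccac
Cd177: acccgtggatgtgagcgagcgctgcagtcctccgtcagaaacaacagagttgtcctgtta
For Cxcr2 and Clec4d the first 30 bases of the probe are shown.
Cxcr2: aagggtggggagttcgtgtagaagacacag
Clec4d: aggatttgtaaattacctggaataacattc
The probes of Csf3r and Trem1 hold letters that occur in probes of other genes, and these letters are in capitals below. Bases 31 to 60 are shown for Csf3r and bases 12 to 41 for Trem1.
Csf3r: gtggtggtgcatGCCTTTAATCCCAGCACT
Trem1: cctgtgTTGTTGTTGTTGTTGTTGttgttg
The capitals in Csf3r match letters within B1, a short repeat found throughout the mouse genome, and those in Trem1 are a simple TTG repeat. Capitals mark the letters looked for in other probes and not the full length of a repeat. Csf3r shared a run of at least 20 bases with 3 other probes and Trem1 with 8, and the other 6 receptors shared one with 0.

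The probes lie at chr17:18013609-18013668 (minus strand) for Fpr1, chr17:18030540-18030599 (plus) for Fpr2, chr1:74206886-74206945 (plus) for Cxcr2 and chr4:125721478-125721537 (plus) for Csf3r, in mm9. Those of Il1r2, Clec4d and Trem1 lie at chr1:40180014-40180073, chr6:123224788-123224847 and chr17:48385849-48385908, all on the plus strand. The Cd177 probe covers chr7:25531261-25535362 on the minus strand, a stretch of 4102 bases for a probe of 60, so it joins separate parts of the gene. The other 7 probes each match 1 unbroken stretch. No mm9 annotation was used here, so exon and untranslated region are not stated.

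**Figure D1:**
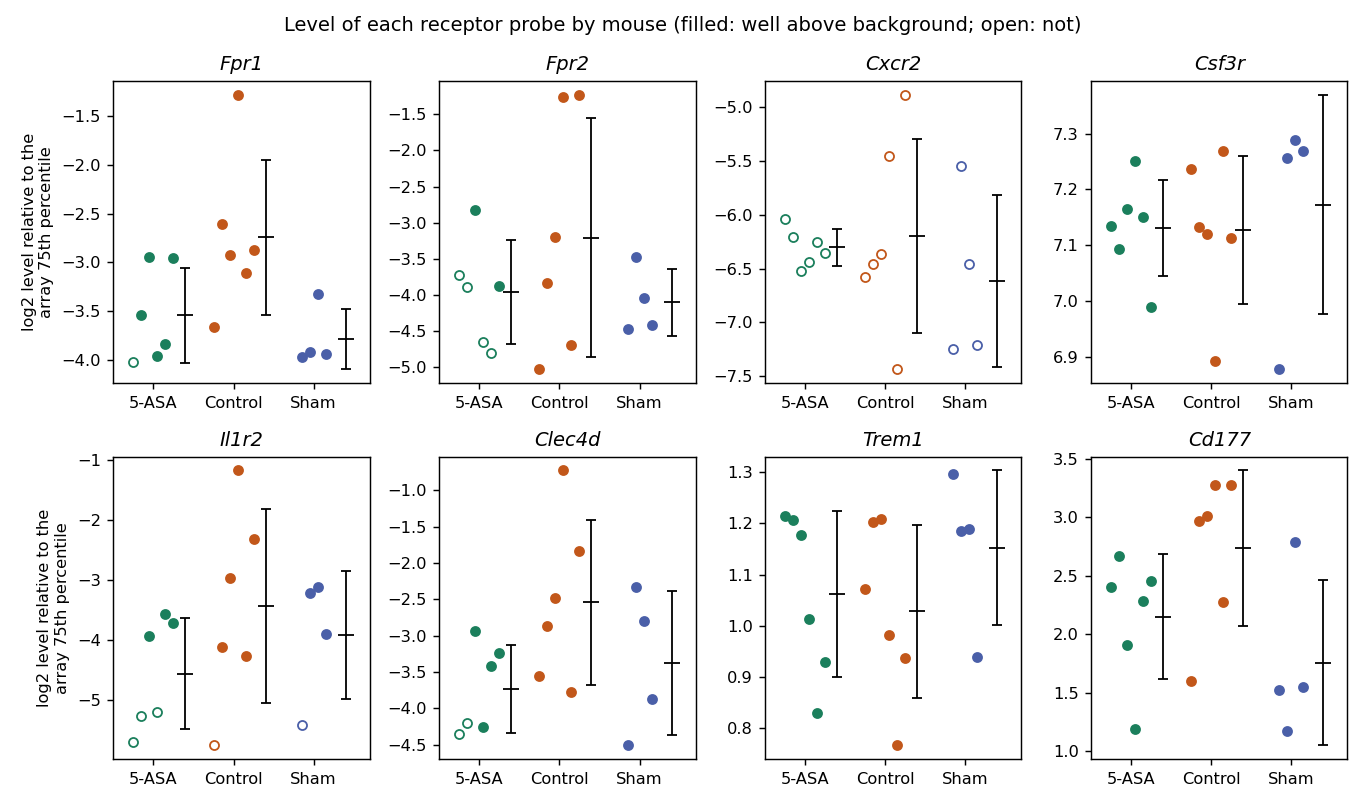
Level of each receptor probe in every mouse, as log2 intensity relative to the array's 75th percentile, with 6 5-ASA, 6 Control and 4 Sham mice. Filled points were well above background and open points were not; the black bar is the mean with 1 SD. Fpr1, Fpr2, Il1r2 and Clec4d spread most widely in Control, where Control 4 or Control 6 is the highest mouse, Cxcr2 has open points alone, and the groups overlap in every panel.

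Among the chemoattractant receptors, Fpr1, which senses formylated peptides of bacteria and mitochondria, was highest in Control mice. The level ran from -4.02 to -2.95 with a median of -3.69 in 5-ASA mice, and from -3.66 to -1.28 with a median of -2.90 in Control mice. The 4 Sham mice had -3.97, -3.92, -3.33 and -3.94. Control 4 stood above all other mice, every Control mouse was above the Sham median, and every 5-ASA mouse was below the Control median, though the groups overlapped. The means were -3.54 ± 0.49 (SD, n = 6) in 5-ASA, -2.74 ± 0.80 (n = 6) in Control and -3.79 ± 0.31 (n = 4) in Sham. The flag for signal well above background was set on 5 of 6 5-ASA arrays and on every Control and Sham array. Control minus Sham was 1.05 (SE 0.36, 95% interval 0.27 to 1.82), with an unadjusted p of 0.0114 and adjusted p = 0.559 in limma. 5-ASA minus Control was -0.80 (SE 0.33, interval -1.495 to -0.11; unadjusted p of 0.0260, adjusted p = 0.9995), and 5-ASA minus Sham was 0.25 (SE 0.36, interval -0.53 to 1.02; adjusted p = 0.893). The order Control, 5-ASA, Sham therefore holds no neighbours that differ past the threshold.

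Fpr2 also binds formyl peptides, and in addition serum amyloid A and annexin A1. Its level ran from -4.81 to -2.82 with a median of -3.88 in 5-ASA mice, and from -5.03 to -1.23 with a median of -3.52 in Control mice. In Sham mice it was -4.47, -3.47, -4.05 and -4.42. The Control group held both the highest mice, Control 6 and Control 4 at -1.23 and -1.26, and the lowest, Control 1, and enclosed the other groups. Of the arrays, 2 of 6 from 5-ASA, 6 of 6 from Control and 4 of 4 from Sham had it flagged as well above background. The 5-ASA arrays that missed this flag were not all dimmer than the Control and Sham arrays that passed it: Control 1 passed at 26.9 intensity units and 5-ASA 1 missed it at 62.3 units, where the additive error was higher. The means were -3.96 ± 0.72 in 5-ASA, -3.21 ± 1.65 in Control and -4.10 ± 0.46 in Sham. Control minus Sham was 0.89 (SE 0.69, interval -0.57 to 2.36; adjusted p = 0.704), 5-ASA minus Control was -0.75 (SE 0.61, interval -2.06 to 0.56; adjusted p = 0.9995) and 5-ASA minus Sham was 0.14 (SE 0.69, interval -1.32 to 1.61; adjusted p = 0.981). On slide 1 and slide 2, Control minus Sham was -0.05 and 1.84, and 5-ASA minus Control was 0.55 and -2.05. The direction of Fpr2 thus differed between slides in both comparisons.

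Cxcr2, the receptor of the neutrophil chemokines Cxcl1, Cxcl2, Cxcl5 and Ppbp, had no array on which its spot stood well above background. The spot ran from 9.40 to 12.5 intensity units in 5-ASA mice, from 4.84 to 28.9 in Control mice and from 5.99 to 19.9 in Sham mice, with scanner errors of 24.0% to 101% of the value. The highest spots, Control 6 at 28.9 and Control 4 at 21.6 units, belonged to the mice that were also highest for Fpr2. No fold or test is given for a probe below background in every group.

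Of the cytokine receptors, Csf3r binds granulocyte colony-stimulating factor, which drives the production and release of neutrophils. Its level ran from 6.99 to 7.25 with a median of 7.14 in 5-ASA mice, and from 6.89 to 7.27 with a median of 7.13 in Control mice. The Sham mice had 6.88, 7.26, 7.29 and 7.27. The values of all groups lay within a narrow band in which Sham 1 and Control 4 were lowest. The means were 7.13 ± 0.09 in 5-ASA, 7.13 ± 0.13 in Control and 7.17 ± 0.20 in Sham. Control minus Sham was -0.05 (interval -0.25 to 0.16; adjusted p = 0.915), 5-ASA minus Control was 0.004 (interval -0.18 to 0.19; adjusted p = 0.9995) and 5-ASA minus Sham was -0.04 (interval -0.25 to 0.16; adjusted p = 0.949).

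The Csf3r spot gave 106900 to 142400 intensity units, and its probe is the one with B1 letters. Those 18 letters occurred on the same strand in 2 other probes, with mean intensities of 138400 and 389400 units, and their correlations with Csf3r over the 16 mice were 0.591 and 0.939. On the opposite strand they occurred in 2 probes, at 171 and 1575 units. Among 34968 probes, 12 (0.0343%) shared a run of 14 letters with the Csf3r probe, and 3 of those were among the 50 probes whose values followed it most closely. Whether the Csf3r spot reports Csf3r transcript was not tested, and its values are those of the spot.

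Il1r2 is a decoy receptor that binds interleukin-1 without signalling. Its level ran from -5.70 to -3.57 with a median of -4.57 in 5-ASA mice, and from -5.76 to -1.17 with a median of -3.55 in Control mice. In Sham mice it was -5.43, -3.21, -3.12 and -3.90. All 5-ASA mice lay below both the Control and the Sham median, the highest narrowly so, at -3.569 beside -3.55 and -3.559. Control 4 and Control 6 were highest and Control 1 lowest of all mice. It stood well above background on 3 of 6 arrays from 5-ASA, 5 of 6 from Control and 3 of 4 from Sham. The means were -4.57 ± 0.93 in 5-ASA, -3.44 ± 1.63 in Control and -3.92 ± 1.07 in Sham. 5-ASA minus Control was -1.13 (SE 0.68, interval -2.59 to 0.33; adjusted p = 0.9995), 5-ASA minus Sham was -0.65 (SE 0.77, interval -2.28 to 0.98; adjusted p = 0.844), and Control minus Sham was 0.48 (SE 0.77, interval -1.15 to 2.11; adjusted p = 0.876). Without Sham 1, Control minus Sham was -0.02, so its sign rests on that mouse, and 5-ASA minus Sham was -1.16.

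Among the immunoreceptors, Clec4d is a C-type lectin that binds mycobacterial glycolipids and pairs with the lectin Clec4e. Its level ran from -4.35 to -2.94 with a median of -3.81 in 5-ASA mice, and from -3.77 to -0.73 with a median of -2.68 in Control mice. In Sham mice it was -4.51, -2.33, -2.80 and -3.86. Every 5-ASA mouse was below the Control median, Control 4 and Control 6 were the highest mice, and the Sham mice fell on both sides of the 5-ASA values. It stood well above background on 4 of 6 arrays from 5-ASA, 6 of 6 from Control and 4 of 4 from Sham. The means were -3.73 ± 0.61 in 5-ASA, -2.54 ± 1.14 in Control and -3.37 ± 0.99 in Sham. 5-ASA minus Control was -1.19 (SE 0.50, interval -2.26 to -0.12), with an unadjusted p of 0.0313 and adjusted p = 0.9995 in limma. Control minus Sham was 0.83 (SE 0.56, interval -0.36 to 2.03; adjusted p = 0.660) and 5-ASA minus Sham was -0.36 (SE 0.56, interval -1.56 to 0.84; adjusted p = 0.901). Both values depended on single Sham mice: without Sham 1 they were 0.455 and -0.74, and without Sham 2 they were 1.18 and -0.012, Control minus Sham first.

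Trem1 amplifies inflammatory responses of neutrophils and monocytes through the adaptor Tyrobp. Its level ran from 0.83 to 1.21 with a median of 1.095 in 5-ASA mice, and from 0.77 to 1.21 with a median of 1.03 in Control mice. The Sham values were 1.30, 1.19, 1.19 and 0.94. No group stood apart, and the SD was 0.15 to 0.17 in each. Control minus Sham was -0.12 (interval -0.36 to 0.11; adjusted p = 0.742), 5-ASA minus Control was 0.03 (interval -0.18 to 0.24; adjusted p = 0.9995) and 5-ASA minus Sham was -0.09 (interval -0.32 to 0.14; adjusted p = 0.853).

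The Trem1 values followed those of probes with the same repeat. Its 18 letters occurred on the same strand in 4 other probes, whose correlations with Trem1 over the 16 mice ran from 0.717 to 0.961, and on the opposite strand in 4 probes, with a median correlation of 0.02. The spot also lies in row 382 of the 384 spot rows of the array. Of the probes in the last 8 rows, 10.2% had a Sham mean over 1.5 log2 units above that of the DSS-treated mice, against 0.185% in all other rows. Whether the Trem1 spot reports Trem1 transcript was not tested.

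Cd177 is a glycoprotein anchored in the outer membrane by a lipid, which in human neutrophils pairs with the integrin Itgam/Itgb2, binds Pecam1 on endothelium and presents the protease Prtn3. Its level ran from 1.19 to 2.67 with a median of 2.34 in 5-ASA mice, and from 1.60 to 3.28 with a median of 2.99 in Control mice. In Sham mice it was 1.52, 1.18, 2.79 and 1.55. Every Control mouse was above the Sham median and every 5-ASA mouse below the Control median, with Sham 3 inside the Control range. The means were 2.15 ± 0.53 in 5-ASA, 2.73 ± 0.67 in Control and 1.76 ± 0.70 in Sham, and all 16 arrays were well above background. Control minus Sham was 0.98 (SE 0.38, interval 0.16 to 1.79), with an unadjusted p of 0.0216 and adjusted p = 0.559 in limma. 5-ASA minus Control was -0.58 (SE 0.34, interval -1.31 to 0.14; adjusted p = 0.9995) and 5-ASA minus Sham was 0.39 (SE 0.38, interval -0.42 to 1.20; adjusted p = 0.793).

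**Figure D2:**
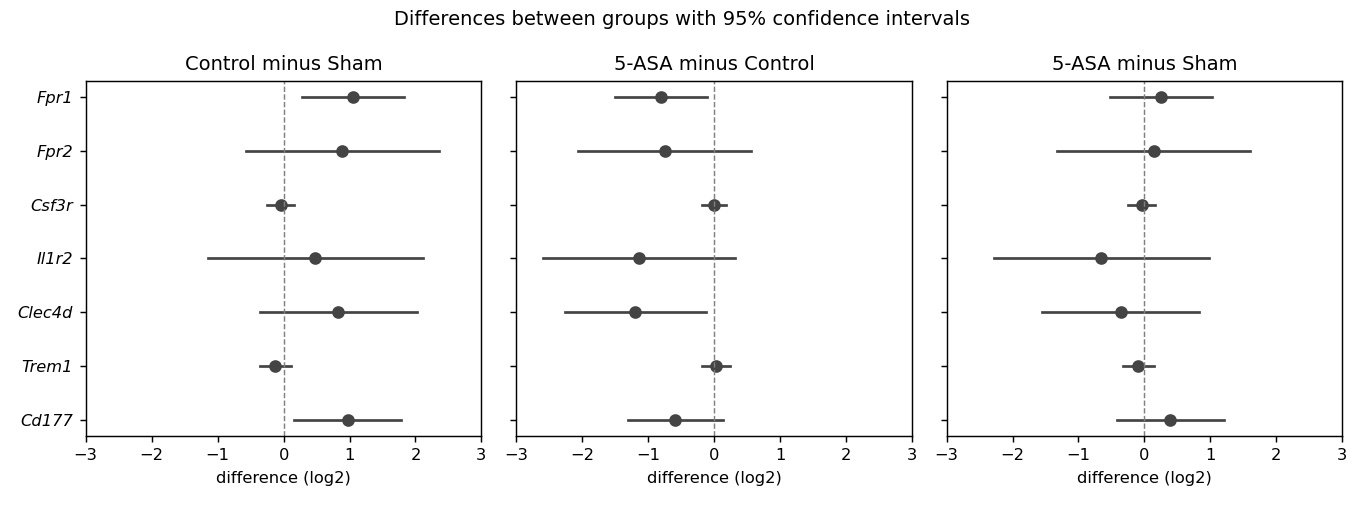
Differences between group means (log2) for the 7 receptors tested, with 95% confidence intervals from limma, for Control minus Sham, 5-ASA minus Control and 5-ASA minus Sham. The intervals of Fpr1 and Cd177 lie above 0 for Control minus Sham and those of Fpr1 and Clec4d below 0 for 5-ASA minus Control, before adjustment over all genes; Csf3r and Trem1 have the narrowest intervals.

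Between Control and Sham, which sets the DSS course with saline against water alone at day 28, 0 of the 7 receptors were called, against 0.057% of all genes. DSS and saline cannot be told apart in this comparison. At an unadjusted p under 0.05 stood 2 of the 7, Fpr1 and Cd177, both higher in Control, against 8.88% of all genes in either direction and 5.64% higher. That count was 1 without Sham 1, 2 or 4, each left out alone, and on slide 1. It was also 1 with row in the fit and with the replicate number as a block. In those fits 775 to 2685 of 24543 genes passed. On slide 2 it was 0, where 1896 genes passed. The difference was above 0 for 5 of the 7, against 51.6% of genes, and below 0 for 2, Csf3r and Trem1, against 48.4%, with a median of 0.83 beside 0.008 over all genes. All Control mice exceeded the Sham median for Fpr1 and Cd177, as they did for 12.2% of genes. No receptor had Control mice that were all above or all below the Sham mice (0 of 7, against 2.71% and 0.623% of genes).

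Between 5-ASA and Control, which asks how the drug group differed after the same DSS course, 0 of the 7 receptors were called, against 0.0% of all genes. With limma's trended and robust setting 0 genes were called as well. An unadjusted p under 0.05 was seen for 2 of the 7, Fpr1 and Clec4d, both lower in 5-ASA, against 4.05% of genes in either direction and 2.64% lower. That count was 0 without Control 4, 5-ASA 1 or 5-ASA 4, each left out alone, and on either slide alone. In those fits 723 to 1327 of 24543 genes passed. It was 1 without Control 6, 5-ASA 2 or 5-ASA 5 and with row in the fit, where 768 to 1186 genes passed. Without Control 1 it was 4, where 1600 genes passed. The difference was below 0 for 5 of the 7, against 50.4% of genes, and above 0 for 2, against 49.6%, and the median was -0.75 beside -0.001 over all genes. All 5-ASA mice lay under the Control median for 4 of the 7, Fpr1, Il1r2, Clec4d and Cd177, as they did for 5.13% of genes. The highest 5-ASA mouse was close to that median for Il1r2 (-3.569 against -3.55) and Fpr1 (-2.946 against -2.899). It was further below for Clec4d (-2.938 against -2.678) and Cd177 (2.671 against 2.989). In 0 of 7 did the 5-ASA mice all lie above or all below the Control mice, against 0.0163% and 0.122% of genes. The Control mice are shared by both comparisons, so the opposite signs of the 5 receptors in them are not separate observations. The 5 receptors also varied together across mice, as given below, so counts over them are not counts of separate observations either.

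Between 5-ASA and Sham, 0 of the 7 receptors were called, against 0.057% of all genes, and 0 of 7 had an unadjusted p under 0.05, against 10.9%. The differences had both signs, 3 above 0 and 4 below, against 51.4% and 48.6% of genes, with a median of -0.04 beside 0.006 over all genes. For Il1r2 and Csf3r all 5-ASA mice were below the Sham median, as for 8.87% of genes. Both held by a small margin, the highest 5-ASA mouse being at -3.569 against -3.559 for Il1r2 and at 7.251 against 7.262 for Csf3r. In 0 of 7 did the groups separate with 5-ASA above or below, against 1.06% and 0.758% of genes.

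Since row and group are partly joined, differences were also taken within rows by fitting the row. Within the first row, Control minus Sham was 1.13 for Fpr1, 0.40 for Fpr2, 0.08 for Il1r2, 0.64 for Clec4d and 0.77 for Cd177. Within the second row, 5-ASA minus Control, which there rests on Control 3 and Control 6, was -0.65 for Fpr1, -1.74 for Fpr2, -1.93 for Il1r2, -1.57 for Clec4d and -0.99 for Cd177. The signs were those of the fit without row for these 5 receptors, and 0 of 7 were called in either comparison. Sham and 5-ASA cannot be told apart from row 1 and row 2 in their own comparison, where Fpr2 and Cd177 came to -1.35 and -0.22 with row in the fit.

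The receptors also differed in their spread among mice. The SD over 5-ASA mice was 0.72 for Fpr2, 0.93 for Il1r2, 0.61 for Clec4d and 0.49 for Fpr1, at percentiles 92.0, 95.6, 88.7 and 83.2 of all genes tested. In Control mice the SD of these genes was 1.65, 1.63, 1.14 and 0.80, at percentiles 99.0, 98.9, 96.8 and 92.3, where the median SD of all genes was 0.24. In Sham mice it was 0.46, 1.07, 0.99 and 0.31, at percentiles 82.9, 96.8, 96.0 and 69.0, so that Il1r2 and Clec4d ranked about as high in Sham as in Control. Cd177 had an SD of 0.53 in 5-ASA, 0.67 in Control and 0.70 in Sham. Csf3r and Trem1 were at percentiles 21.2 and 32.5 in Control. The percentiles were not matched on intensity. Its median in Control was 84.5 to 149 units for Fpr1, Fpr2, Il1r2 and Clec4d, 127200 for Csf3r and 1859 for Trem1. Within Control, Control 4 was 2.46 above the mean of all mice for Fpr2, 2.81 for Il1r2, 2.47 for Clec4d and 2.03 for Fpr1. Control 6 was 2.48, 1.67, 1.36 and 0.43 above it for the same genes, and Control 1 was below it by 1.32 for Fpr2 and by 1.78 for Il1r2. Without Control 4, 5-ASA minus Control was -0.36 for Fpr2, -0.68 for Il1r2, -0.83 for Clec4d and -0.51 for Fpr1. In that case Control minus Sham was 0.50 for Fpr2, 0.03 for Il1r2, 0.47 for Clec4d and 0.76 for Fpr1. Without Control 6, Fpr2 was at -0.35 for 5-ASA minus Control and at 0.50 for Control minus Sham. Without Control 1 the values went the other way, to -1.115 for Fpr2 and -1.60 for Il1r2 in 5-ASA minus Control, and to 1.26 for Fpr2 and 0.95 for Il1r2 in Control minus Sham.

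**Figure D3:**
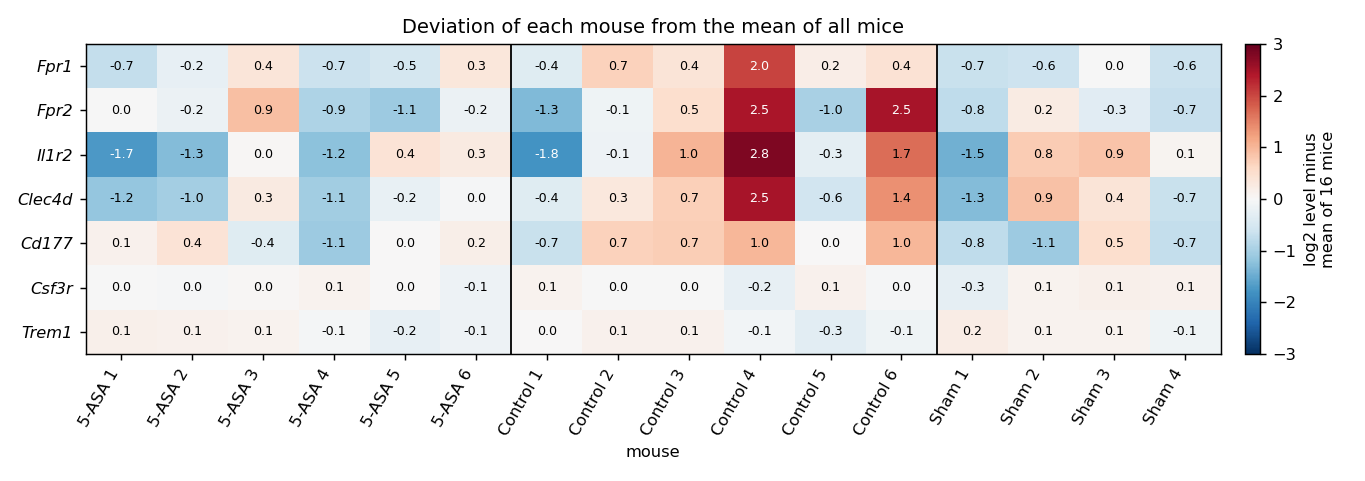
Deviation of each mouse from the mean of all 16 mice, in log2 units, for the 7 receptors tested (rows), with 5-ASA, Control and Sham mice in columns. Control 4 and Control 6 are high for Fpr2, Il1r2 and Clec4d at 1.36 to 2.81 above the mean, Control 1 is lowest for Fpr2 and Il1r2, and Csf3r and Trem1 stay between -0.30 and 0.23.

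Across the 16 mice, 5 of the receptors varied together and Csf3r and Trem1 did not join them. Pearson's r was 0.915 between Il1r2 and Clec4d, 0.804 between Fpr2 and Clec4d, 0.794 between Fpr1 and Clec4d, 0.711 between Fpr1 and Il1r2 and 0.710 between Fpr1 and Fpr2. With Cd177, r was 0.720 for Fpr1, 0.607 for Fpr2 and 0.555 for Il1r2 and Clec4d. After each group's mean was taken off, Il1r2 and Clec4d were at 0.916 and Fpr1 and Cd177 at 0.575. Without Control 4, Il1r2 and Clec4d were at 0.868, Fpr2 and Clec4d at 0.691 and Fpr1 and Fpr2 at 0.513. Clec4d and Cd177 were the lowest pair among the 5, at 0.44 without Control 4 and at 0.456 with group means taken off. Over all 16 mice, Trem1 was at -0.294 to 0.044 with these 5 and Csf3r at -0.448 to -0.187. These are descriptions over mice that share slides, array scaling and the cell mix of 1 tissue piece each.

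**Figure D4:**
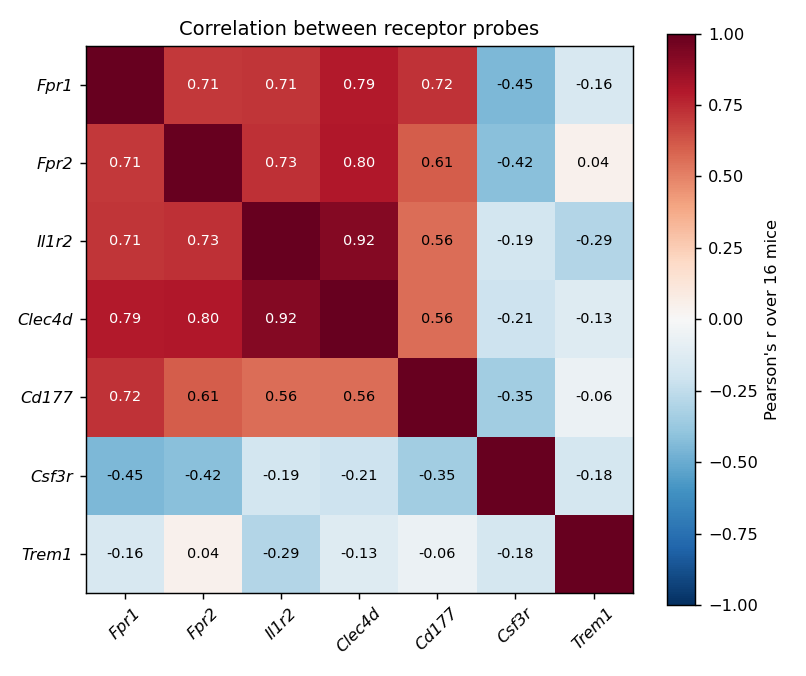
Pearson's r between the levels of the 7 receptors tested, over 16 mice. Fpr1, Fpr2, Il1r2, Clec4d and Cd177 have r of 0.555 to 0.915 with each other, and Csf3r and Trem1 have r of -0.448 to 0.044 with those 5.

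The genes with the highest correlation to Fpr1 over the 16 mice were the Fc receptor Fcgr4 (r = 0.931), the lectin Clec4a1 (0.893) and the cytokine receptor subunit Il12rb1 (0.857). For Fpr2 they were the cytokine Il1b (0.848), the acute phase protease inhibitor Serpina3n (0.842) and Urb2 (0.839). Il1r2 was followed by Gsap (0.931), the syntaxin Stx11 (0.921) and the inhibitory receptor Pdcd1 (0.919), and Clec4d by Il1r2 (0.915), Ms4a6d (0.893) and the copper carrier ceruloplasmin, Cp (0.888). Cd177 was followed by the peptidoglycan-binding protein Pglyrp1 (0.942), 1700019D03Rik (0.904) and the oxidase maturation factor Duoxa2 (0.874). With the group means taken off, these values were 0.818 to 0.941. None of these 15 probes shared a run of over 7 bases with the receptor's probe.

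For the repeat-bearing probes the closest probes were of another kind. Those closest to Trem1 were Gm4146 (r = 0.961), E430010N07Rik (0.944) and Fubp3 (0.926), and their probes share runs of 33, 32 and 30 bases with that of Trem1. Those closest to Csf3r were the mitochondrial initiation factor Mtif2 (0.973), with a run of 15 bases in common, and probes without a gene name (0.964 and 0.959), with 11 bases in common. Of the 50 closest probes, 4 for Trem1 and 3 for Csf3r shared 14 letters, against 0 for Fpr1, Fpr2, Il1r2, Clec4d and Cd177. Among all 34968 probes, 11 shared 14 letters with Trem1 and 12 with Csf3r. For Fpr1, Fpr2, Il1r2, Clec4d and Cd177 these were 1, 0, 1, 1 and 2, so that few or none could stand among their 50.

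Neutrophil markers were set beside the receptors. The alarmin S100a8 averaged -2.89 ± 1.02 in 5-ASA, -1.59 ± 2.48 in Control and -3.34 ± 1.39 in Sham, and its partner S100a9 averaged -2.06 ± 0.86 in 5-ASA, -0.78 ± 2.28 in Control and -2.05 ± 1.67 in Sham. The surface marker Ly6g averaged 2.76 ± 0.76 in 5-ASA, 2.60 ± 0.98 in Control and 2.56 ± 1.40 in Sham. Myeloperoxidase, Mpo, averaged -4.16 ± 0.57 in 5-ASA, -4.70 ± 0.50 in Control and -4.43 ± 0.41 in Sham. Both alarmins had their highest mean and their widest spread in Control, while Ly6g and Mpo had their highest mean in 5-ASA. With S100a9, r over 16 mice was 0.812 for Clec4d, 0.780 for Il1r2, 0.767 for Fpr2, 0.538 for Fpr1 and 0.469 for Cd177. For the same 5 receptors r was 0.582 to 0.763 with S100a8, 0.351 to 0.510 with Ly6g and -0.437 to -0.322 with Mpo. Of 10 neutrophil markers 8 were tested, Ngp and Mmp8 being too dim, and 4 were higher and 4 lower in 5-ASA than in Control (median 0.003), 4 were higher and 4 lower in 5-ASA than in Sham (median 0.10), and 3 were higher and 5 lower in Control than in Sham (median -0.02), with 0 called in each. Their summed level was 5.36 to 14.8 in 5-ASA, 4.18 to 25.9 in Control and 3.40 to 19.4 in Sham. Over these 8 markers the median r was 0.229 for Fpr1, 0.471 for Fpr2, 0.380 for Il1r2, 0.313 for Clec4d and 0.384 for Cd177. The lowest r of a single marker was -0.746 to -0.551. In the same order the median r was 0.554, 0.489, 0.638, 0.638 and 0.301 with monocyte and macrophage markers. With T cell markers it was 0.418, 0.482, 0.668, 0.644 and 0.190.

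Markers of several other cell types differed in 1 direction between 5-ASA and Control. All 10 tested monocyte and macrophage markers were lower in 5-ASA, with a median of -0.14 and 0 called, and their summed level was 24.5 to 41.4 in 5-ASA, 27.1 to 62.3 in Control and 24.8 to 54.0 in Sham. All 6 B cell markers were lower as well (median -1.48, 0 called; summed level 1.25 to 3.25 in 5-ASA, 1.03 to 43.8 in Control and 0.919 to 37.4 in Sham). All 6 smooth muscle markers were higher in 5-ASA (median 0.40, 0 called; summed level 523 to 734 in 5-ASA, 246 to 880 in Control and 453 to 893 in Sham). The smooth muscle markers ran against the receptors across mice, with a median r of -0.812 for Fpr2, -0.757 for Il1r2, -0.735 for Clec4d, -0.681 for Cd177 and -0.598 for Fpr1. All 4 tested erythroid markers were lower in 5-ASA, each at an unadjusted p under 0.05 in limma, against 4.05% of all genes. Their median difference was -1.73, with 0 called. Their summed level was 12.9 to 33.0 in 5-ASA, 24.3 to 258 in Control and 24.6 to 41.6 in Sham. Control 1 had the highest erythroid score of its group, 3.301 beside a median of 0.309. The median r of erythroid markers with Fpr1, Fpr2, Il1r2, Clec4d and Cd177 was -0.326 to -0.054 across mice. With the group means taken off it was -0.716 to -0.596. Of the remaining markers, 5-ASA was lower than Control for 6 of 6 T cell, 4 of 6 eosinophil, 0 of 5 mast cell and 7 of 10 epithelial genes tested, with 0 called. Between Control and Sham, 6 of 6 smooth muscle and 6 of 6 B cell markers were lower and 4 of 4 erythroid markers higher in Control, with 0 called. Between 5-ASA and Sham all 6 B cell markers were lower in 5-ASA (median -2.71). Each had an unadjusted p under 0.05 in limma, against 10.9% of all genes. Markers of 1 cell type stand for the same cells in the same mice, so counts over them are not counts of separate observations. Lower in 5-ASA were also 6 of 6 T cell, 4 of 4 erythroid, 7 of 10 monocyte and macrophage and 5 of 6 eosinophil markers. Higher were 5 of 5 mast cell (median 1.72), 5 of 6 smooth muscle and 8 of 10 epithelial markers, and 0 markers were called. B cell markers ran with Il1r2 (median r 0.752) and Clec4d (0.689). Control 4 had the highest score of its group for neutrophil, macrophage, B cell and T cell markers, and Control 6 the lowest for smooth muscle. The part of cell mix in the receptors' values was not tested.

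Among ligands of the receptors, 12 of 16 were tested, and Csf3, Cxcl2, Cxcl3 and Il1a were too dim. Between Control and Sham 9 were higher and 3 lower, with a median of 0.36 and 1 called. That gene was Ppbp, a platelet chemokine and Cxcr2 ligand, at -3.80 ± 0.80 in Control and -6.20 ± 0.42 in Sham, flagged as well above background on 5 of 6 arrays from Control and 0 of 4 from Sham. It was at least 2.96-fold higher (fitted difference 2.40, SE 0.37, adjusted p = 0.0242). Ppbp met the filter on dim probes through the Control arrays alone, the group in which it was high, so that a difference was built into its being tested. The call was lost, at an adjusted p of 0.0605 to 0.134, without Sham 2, 3 or 4 or Control 3, 4 or 5, each left out alone, and the difference was 0.68 (adjusted p = 0.530) with normexp background correction. The next smallest p were those of the Fpr2 ligand Saa3 (2.78, SE 0.70) and of Hmgb1 (0.25, SE 0.11), which were not called. Between 5-ASA and Control 8 ligands were lower and 4 higher, with a median of -0.15 and 0 called. Ppbp, at 0 of 6 5-ASA arrays well above background, was at least 1.87-fold lower (adjusted p = 0.359 in limma). Without the filter on dim probes its fitted difference was the same and its adjusted p was 0.0390. That fit called 2937 genes, 2886 of them higher in 5-ASA, against 0 with the filter. The antagonist Il1rn and Pglyrp1 differed by -0.59 (SE 0.41) and -0.21 (SE 0.16). Against Sham, 8 ligands were higher in 5-ASA and 4 lower, with 0 called. Saa3 was at 2.11 (SE 0.70), Hmgb1 at 0.32 (SE 0.11) and the Cxcr2 ligand Cxcl5 at 2.05 (SE 1.15).

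Of the co-receptors and signalling partners, 15 of 18 were tested, and Clec4e, Card9 and Prtn3 were too dim. In Control 9 were higher than in Sham and 6 lower, in 5-ASA 4 were higher than in Control and 11 lower, and in 5-ASA 6 were higher than in Sham and 9 lower, with 0 called in each. Socs3, an inhibitor that Csf3r signalling induces, differed by 1.15 (SE 0.46) between Control and Sham, Il1r1 by 0.26 (SE 0.13) and the kinase Syk by 0.18 (SE 0.14). Between 5-ASA and Control Syk differed by -0.36 (SE 0.12), the adaptor Bcl10 by -0.12 (SE 0.07) and the interleukin-1 receptor subunit Il1rap by -0.14 (SE 0.09). Against Sham, 5-ASA differed by 0.76 (SE 0.46) for Socs3, 0.22 (SE 0.13) for Il1r1 and -0.18 (SE 0.14) for Syk. The unadjusted p of Syk between 5-ASA and Control was 0.00893, and its adjusted p was 0.9995 in limma.

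Of other neutrophil surface molecules 17 of 18 were tested, all but Cxcr1. They were higher in Control than in Sham for 9 and lower for 8 (median 0.04), and lower in 5-ASA than in Control for 15 and higher for 2 (median -0.24). Against Sham, 5-ASA was higher for 6 and lower for 11, and 0 were called in each comparison. Between Control and Sham, Fcgr4 differed by 1.03 (SE 0.39), Ceacam10 by 0.62 (SE 0.28) and Mcemp1 by -0.18 (SE 0.15). Between 5-ASA and Control, the complement receptor C5ar1 differed by -0.49 (SE 0.21) and Ceacam10 by -0.51 (SE 0.25). Against Sham, Mcemp1 was at -0.39 (SE 0.15) and C5ar1 at -0.40 (SE 0.23) in 5-ASA.

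Of the neutrophil granule and cytosol genes 13 of 15 were tested, and 0 were called in any comparison. In Control 4 were higher than in Sham and 9 lower (median -0.07), and in 5-ASA 3 were higher than in Control and 10 lower (median -0.30) and 5 were higher than in Sham and 8 lower. The smallest p between Control and Sham were those of S100a8 (1.75, SE 1.08), lipocalin Lcn2 (0.48, SE 0.37) and S100a9 (1.28, SE 1.03). Between 5-ASA and Control they were those of Mpo (0.55, SE 0.28), Lcn2 (-0.62, SE 0.33) and the oxidase subunit Cybb (-0.64, SE 0.38). Between 5-ASA and Sham they were those of Stfa2l1 (-0.87, SE 0.51), Cybb (-0.71, SE 0.43) and lysozyme Lyz2 (-0.68, SE 0.43). On slide 1 alone, Control minus Sham was -0.27 for S100a9. Without Control 4 it was 1.14 for S100a8 and 0.67 for S100a9, and without Control 6 it was 0.26 for Lcn2 and 0.80 for S100a9, while without Sham 2 it was 2.08 for S100a9.

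Of the 28 family members of the receptors 27 were on the array and 19 were tested, with 0 called. The formyl peptide receptor relatives Fpr-rs3, Fpr-rs4 and Fpr-rs6 were well above background on 0 of 16 arrays and Fpr3 on 2. Between Control and Sham 9 were higher and 10 lower. The lectin Clec4n differed by 0.90 (SE 0.22, unadjusted p of 0.00110), Treml1, a relative of Trem1 found on platelets, by 0.48 (SE 0.20) and the interleukin-33 receptor Il1rl1 by 1.78 (SE 0.79). In 5-ASA 6 were higher than in Control and 13 lower. Treml1 was at -0.70 (SE 0.18, unadjusted p of 0.00135, adjusted p = 0.9995 in limma). Its adjusted p was 0.0390 without the filter on dim probes, in the fit that called 2937 genes. Clec4n was at -0.39 (SE 0.20) and the chemokine receptor Cxcr5 at -2.01 (SE 1.12). Against Sham, 9 were higher in 5-ASA and 10 lower. Cxcr5 was at -3.31 (SE 1.25), Clec4n at 0.51 (SE 0.22), and Treml2, well above background on 0 of 6 5-ASA and 3 of 4 Sham arrays, was at least 1.30-fold lower in 5-ASA (adjusted p = 0.414).

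The promoters of Il1r2 and Clec4d, the receptors with the highest correlation, are given for their letters. They are the 250 bases before the start of each gene, from RefSeq on GRCm38.p6, where all 8 receptors had an entry. Capitals mark GAGGAA, core letters bound by the myeloid factor PU.1, or the same letters read on the other strand.
Il1r2 (chr1:40085843-40086092, plus strand): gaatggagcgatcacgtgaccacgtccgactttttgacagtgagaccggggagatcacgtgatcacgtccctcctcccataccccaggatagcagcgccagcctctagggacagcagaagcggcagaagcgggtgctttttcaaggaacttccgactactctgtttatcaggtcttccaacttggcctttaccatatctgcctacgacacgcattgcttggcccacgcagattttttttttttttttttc
Clec4d (chr6:123261857-123262106, plus strand): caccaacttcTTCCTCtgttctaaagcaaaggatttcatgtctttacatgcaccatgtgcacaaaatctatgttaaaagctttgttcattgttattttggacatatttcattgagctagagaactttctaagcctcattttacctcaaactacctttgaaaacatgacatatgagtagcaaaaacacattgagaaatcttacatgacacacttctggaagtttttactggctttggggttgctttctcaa
GAGGAA was found on either strand in the promoters of Fpr2, Cxcr2, Csf3r, Clec4d, Trem1 and Cd177, and not in those of Fpr1 and Il1r2, and it is held by 23.3% of 32851 promoters of that length. TTNNGCAA, letters bound by C/EBP factors, was found in 0 of the 8 and is held by 9.56% of promoters. A match is a description of letters and not of a bound site.

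The labels give each mouse a diarrhea score for day 28. All 5-ASA and Sham mice scored 0 or 0.5, and of the Control mice Control 3 scored 1.5, Control 4 and Control 6 scored 1 and the other 3 scored 0.5. The 3 Control mice that scored 1 or more were above the 3 that scored 0.5 for 4 of the 7 receptors tested, Fpr2, Il1r2, Clec4d and Cd177, as they were for 9.22% of all genes. For Fpr2 the level was -3.21 to -1.23 in the mice that scored 1 or more and -5.03 to -3.84 in the others. Il1r2 was at -2.97 to -1.17 in those with the higher scores and at -5.76 to -4.13 in the others, Clec4d at -2.49 to -0.73 and -3.77 to -2.87, and Cd177 at 3.01 to 3.28 and 1.60 to 2.97, with the higher scores given first. Fpr1 overlapped, at -2.92 to -1.28 with the higher scores and -3.66 to -2.60 with the lower. Csf3r was below in the mice with higher scores, at 6.89 to 7.12 and 7.13 to 7.27, as 12.2% of genes were. With 3 mice against 3 no test was made, and Control 3 and Control 6 are also the Control arrays of the second row.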

How the data were processed

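Colon RNA of 16 ApcMin/+ mice (6 5-ASA, 6 Control, 4 Sham) was measured on 1-colour Agilent arrays, 1 per mouse. The deposited scanner files, per the file headers written by Agilent Feature Extraction 10.10.1.1, hold background-subtracted spot intensity with no scaling between arrays, flags for spots well above background, and probe positions in mm9. The mean and background intensity of the deposited files were used for 1 alternative. The authors' deposited value table gives no scale. By comparison with the scanner files, the authors' deposited values are log2 intensities shifted to each array's 75th percentile and centred on Sham (r 0.992 to 0.998), with column medians of -0.187 to 0.223. Its scale, centring and direction were thus inferred.

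Here log2 processed intensity minus the array's 75th percentile was taken over non-control spots without outlier flags. The filter of 4 arrays kept 35087 probes, and the brightest kept probe stood for each of 24543 genes. Of 55681 probes, 27656 were named through RefSeq accessions (assembly GRCm38.p6, used for names and promoters alone), and 1711 symbols were updated. All 16 arrays entered 1 limma model (limma 3.58.1, R 4.3.3; Python 3.11.15) without covariates, with Benjamini-Hochberg adjustment over all genes and 95% intervals. The scripts were tested on simulated data. No array had a saturated spot (0). Where 1 group had no array well above background, a bound stands in place of a fold: the bright group's mean was set against the dim group's, each dim array entering at its faintest well-detected signal, or at the probe's own value if larger.

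The receptors, gene lists and rule for named genes were chosen with earlier results of these data known. Named were the 8 receptors, the 3 genes with the smallest p per comparison and list (ligands, co-receptors and signalling partners, other surface molecules, granule and cytosol, family members), S100a8, S100a9, Ly6g and Mpo, and the 3 genes with the highest correlation to each tested receptor; 1 gene that this rule names is not reported here. A summed level adds a list's tested genes on the linear scale, and a score is their mean log2 deviation. Alternatives covered background correction, scaling, dim-probe filter, slide, row, replicate number, outer spot rows, probe per gene, limma setting, the authors' values and leaving out each mouse. Deviations of same-numbered mice correlated at r -0.213 to 0.607 and not above 0.1 in every pair, so the numbers were not taken to pair mice.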

Additional observations from a re-analysis of the deposited data

Results flagged for a closer look

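In the Sham group, 2 mice stood far from the other 3 of their group by the gap to the nearest value over the whole range, where the limit for 4 values is 0.829. Sham 3 was highest for Fpr1, at -3.33 beside -3.97 to -3.92, with a ratio of 0.928. Without Sham 3, Control minus Sham was 1.20 and 5-ASA minus Sham 0.40 for Fpr1. Sham 1 was lowest for Csf3r, at 6.88 beside 7.26 to 7.29, with a ratio of 0.920. Without Sham 1, Control minus Sham and 5-ASA minus Sham were both -0.14 for Csf3r. The 8 receptors were looked at in 3 groups each, and chance flags about 1 in 20 groups. No Control or 5-ASA mouse passed its limit for any receptor, Control 4 reaching 0.587 for Csf3r and 0.556 for Fpr1 where the limit is 0.625.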

How the results depend on the processing

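No receptor was called in any comparison under any alternative (0 of 7 tested, fewer where a filter removed a probe). Without a filter on dim probes Cxcr2 entered the fit as well and was not called. The count of genes called over the whole array moved instead. For Control against Sham it was 14, and 1 with probes well above background on all 16 arrays, 4 on slide 1 alone, 1 on slide 2 alone, 7 with only these groups in the fit and 0 without the outer 12 spot rows, where 2074 genes had an unadjusted p under 0.05. For 5-ASA against Control it was 0, with 993 genes at an unadjusted p under 0.05, and 2937 without a filter on dim probes, 1 on slide 2 alone and 7 with row as a covariate. For 5-ASA against Sham it was 14, and 3271 without that filter, 2 with probes well above background on all arrays, 2 and 4 on slides 1 and 2, 8 with row as a covariate and 0 without the outer rows, with 2472 at an unadjusted p under 0.05. Leaving out 1 mouse gave 10 to 16, 0 to 0 and 11 to 23 genes in that order, the 23 without 5-ASA 4. The causes were not tested. Ppbp, higher in Control than in Sham by 2.40, had an adjusted p of 0.00728 to 0.972 over the alternatives and lost its call also with row as a covariate (0.0645), with the replicate number as a block (0.0540), with quantile scaling (0.0619) and without the outer spot rows (0.261). Without the filter on dim probes, Ppbp and Treml1 were called as lower in 5-ASA than in Control (adjusted p of 0.0390 for both). Of the 2937 genes called in that fit, 2886 were higher in 5-ASA.

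The sign turned for the following differences. For Control minus Sham these were S100a9 on slide 1 (-0.274), Fpr2 on slide 1 (-0.051), Csf3r on slide 1 (0.10), Csf3r with 1 mouse left out (-0.14 to 0.002) and Il1r2 likewise (-0.023 to 0.95). For 5-ASA minus Control they were Fpr2 on slide 1 (0.55), Csf3r with normexp background (-0.017), quantile scaling (-0.016), median scaling (-0.007) and on slide 1 (-0.032), and Trem1 with row as a covariate (-0.011). With 1 mouse left out Csf3r ran from -0.044 to 0.032 and Trem1 from -0.018 to 0.081. For 5-ASA minus Sham they were Fpr2 on slide 2 (-0.21), with row (-1.35) and with 1 mouse left out (-0.086 to 0.352), Csf3r on slide 1 (0.065), and Cd177 on slide 2 (-0.19) and with row (-0.22). Fpr1, Clec4d, Cd177 and Trem1 kept their sign in all alternatives for Control minus Sham, Trem1 at -0.196 to -0.035. For 5-ASA minus Control, Fpr1, Clec4d, Cd177 and Il1r2 did so. With the replicate number as a block 10, 0 and 12 genes and 0 receptors were called. Signal over background limits the dim receptors, whose scanner error reached 36.1% of the value for Fpr2, 73.3% for Il1r2 and 28.0% for Clec4d.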
